A study of Mus musculus with 18 samples.

Results

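The interferon-stimulated genes described here are a list of 37 antiviral and immune genes, chosen by name among 56246 genes counted in mouse epidermis. All 37 were found in the table of counts through their Ensembl identifiers, and all 37 passed the filter on low counts that left 18910 genes for testing. They comprise 4 transcription factors, 4 sensors of RNA and DNA, 6 genes of the PKR and OAS effectors, 4 IFIT genes, 5 GTPases, 3 genes of the ISG15 system, 9 other antiviral effectors and 2 chemokines.

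Interferons are secreted proteins that bind receptors on nearly all nucleated cells. Type I interferons act through the kinases JAK1 and TYK2 on a complex that includes STAT2 and IRF9 and binds the interferon-stimulated response element (ISRE), whereas interferon gamma acts on gamma-activated sites (GAS). In skin, keratinocytes make interferon kappa, encoded by Ifnk, and UVB exposure of mouse skin is known to be followed by expression of interferon-stimulated genes. Osteopontin (OPN, encoded by Spp1) is a secreted phosphoprotein of bone, epithelium and immune cells that is also known in mouse for a part in interferon production by plasmacytoid dendritic cells.

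The study compared scraped dorsal epidermis of 10-week-old male mice of 3 genotypes by RNA sequencing, with and without 1 UVB exposure. Wild-type (WT) mice carry Spp1, OPN-null mice lack OPN, and K14-OPN mice carry the same null allele with an OPN transgene driven by the keratin 14 promoter, which is active in basal keratinocytes. Irradiated mice received 180 mJ per cm2 of UVB 48 h after shaving, and epidermis was taken 24 h later. Shaving is given for irradiated mice only, and if the others were unshaved, UVB and shaving cannot be told apart. Unirradiated epidermis gave 2 libraries of WT and 3 each of OPN-null and K14-OPN, and irradiated epidermis 3 of WT, 4 of OPN-null and 3 of K14-OPN. Whether each library is 1 animal is not stated, and the p-values then speak of the spread between these samples, which may be technical. Bulk RNA of scraped epidermis holds all cells present, and fewer cells of a type and less RNA per cell cannot be told apart in it.

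The promoter sequences are shown because interferon signalling is known to act on these genes through ISRE and GAS elements. Of the 37 genes, 28 had a window from 250 bases before to 50 bases after a start site in the RefSeq promoter sequences of build GRCm38.p6. An ISRE core was searched as GAAA, 2 bases of any kind and GAAA on either strand, and it was found in 15 of the 28 genes (53.6%), against 3.99% of 27025 genes with a window. A GAS motif, TTC, 3 bases of any kind and GAA, which reads the same on both strands, was found in 7 of the 28 (25.0%), against 9.55% of all genes. A match is a description of the letters in this window and not a site shown to be bound. The stretches below, read 5′ to 3′ in the direction of transcription with the matches in capitals, belong to genes with the levels described next: Isg15 (chr4:156200835-156200936, minus strand), with 3 overlapping cores, Ifit1 (chr19:34640745-34640853, plus strand) and Ifit3 (chr19:34583333-34583456, plus strand), with 2 each on the opposite strand, Rsad2 (chr12:26456523-26456612, minus strand) and Cxcl10 (chr5:92349053-92349139, minus strand), with 1 each, and Isg20 (chr7:78913311-78913399, plus strand), which held a GAS match and no ISRE core.
Isg15: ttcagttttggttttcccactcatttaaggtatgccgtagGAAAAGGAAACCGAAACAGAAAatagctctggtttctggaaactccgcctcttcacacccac
Ifit1: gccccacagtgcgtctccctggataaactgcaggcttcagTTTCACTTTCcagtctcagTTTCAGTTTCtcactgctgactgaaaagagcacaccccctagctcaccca
Ifit3: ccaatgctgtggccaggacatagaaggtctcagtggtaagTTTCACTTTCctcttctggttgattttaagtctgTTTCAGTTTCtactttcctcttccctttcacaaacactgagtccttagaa
Rsad2: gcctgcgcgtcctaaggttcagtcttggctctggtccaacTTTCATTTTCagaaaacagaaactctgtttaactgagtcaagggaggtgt
Cxcl10: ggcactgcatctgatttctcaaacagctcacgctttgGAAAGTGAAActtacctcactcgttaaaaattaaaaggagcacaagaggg
Isg20: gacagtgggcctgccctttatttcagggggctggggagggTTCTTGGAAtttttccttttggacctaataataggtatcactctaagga
The printed Ifit3 stretch was identical to that of its neighbour Ifit3b, and the longest coding transcripts of these 2 genes were 81.7% identical over their alignment, so their counts are uncertain where reads fit both.

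**Figure D1:**
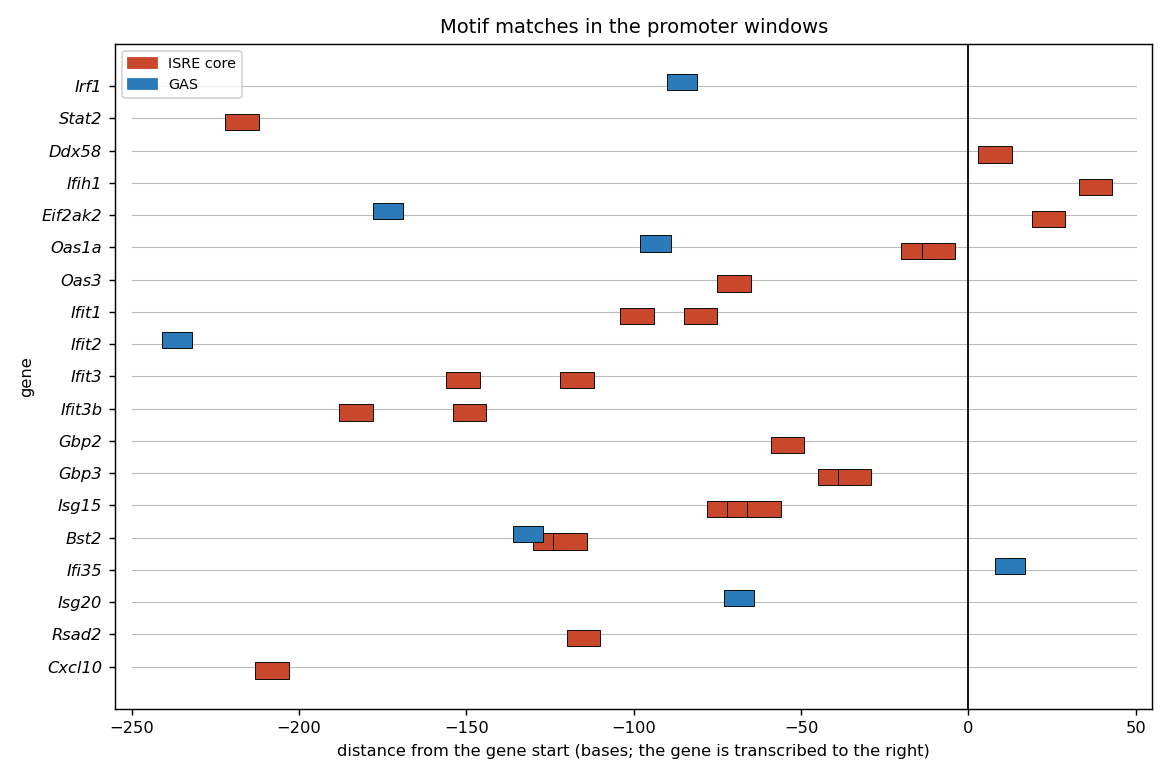
Each row is an interferon-stimulated gene with a match, drawn from 250 bases before to 50 bases after its start site. Red boxes are ISRE cores and blue boxes GAS motifs. Of 28 genes with a window, 15 held an ISRE core, and the GAS match of Isg20 began 73 bases before the start.

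The 18 libraries held between 3696865 and 26068614 counts in genes, and levels are given as CPM, the count scaled to a library of 1000000 counts after TMM scaling, which does not correct for gene length, so levels are set side by side within a gene only. The libraries were of 2 kinds by RNA content: 6 were rich in the noncoding RNA 7SK, 1 in each group, and 12 in the transcript Lars2, which the labels do not mention. Among unirradiated libraries, K14-OPN 11 and WT 10 were rich in hair shaft keratins, and in OPN-null 9 the 10 most abundant genes took 84.3% of the counts. The defining keratinocyte markers Krt5, Krt14 and 7 others had counts in every library and summed to 5238 to 42809 CPM. Spp1 lay at 0 to 7.57 CPM in OPN-null libraries and at 34.5 to 758 CPM in K14-OPN libraries. In WT it lay at 13.2 to 385 CPM after UVB, and at 45.2 and 2.53 CPM without it, so that WT 11 without UVB overlapped the OPN-null range. Ccng1, a p53 target that responds to DNA damage, lay at 136 to 315 CPM in every irradiated library and at 4.85 to 25.9 CPM in every unirradiated one.

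The 37 genes were high or low together within a library, and libraries of 1 group often differed. After UVB, the mean log2 CPM of the 37 genes was 1.78, 1.79 and 0.67 in WT 6, 7 and 8, and 2.91, 3.76 and 4.63 in K14-OPN 1, 2 and 3. In OPN-null 13, 14, 15 and 16 after UVB it was 3.54, 4.21, 1.43 and 1.67. All K14-OPN libraries lay above all WT libraries after UVB, while OPN-null libraries spanned much of the range of both. Without UVB, the mean was 0.08 and 1.28 in WT 10 and 11, 1.56, 0.41 and 2.23 in OPN-null 8, 9 and 10, and 4.64, 1.10 and −0.51 in K14-OPN 1, 2 and 11. The unirradiated K14-OPN 1 thus stood at the level of the highest irradiated library, and the other unirradiated K14-OPN libraries stood far under it. The group means ± SD after UVB were 1.41 ± 0.65 in WT (n = 3), 2.71 ± 1.37 in OPN-null (n = 4) and 3.77 ± 0.86 in K14-OPN (n = 3). Without UVB they were 0.68 ± 0.85 in WT (n = 2), 1.40 ± 0.92 in OPN-null (n = 3) and 1.74 ± 2.63 in K14-OPN (n = 3). The SD between libraries of a group, pooled over the 6 groups, was 1.42, so the WT and OPN-null means after UVB differed by less than the spread between replicates.

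Counting genes gave the same picture as the mean. All 37 genes lay above their own median over the 18 libraries in the unirradiated K14-OPN 1, where 45.7% of all tested genes did so, and all 37 did in K14-OPN 3 after UVB, where 52.6% of all genes did. In K14-OPN 1 and 2 after UVB, 30 and 36 of the 37 lay above their median. In OPN-null 13, 14, 15 and 16 after UVB, the number was 30, 36, 14 and 8. It was 16, 10 and 25 in the unirradiated OPN-null libraries 8, 9 and 10, and at most 13 in any WT library. The unirradiated K14-OPN 1 held the highest level of all 18 libraries for 16 of the genes, against 6.40% of all genes, and K14-OPN 3 after UVB for 14, against 2.47% of all genes.

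**Figure D2:**
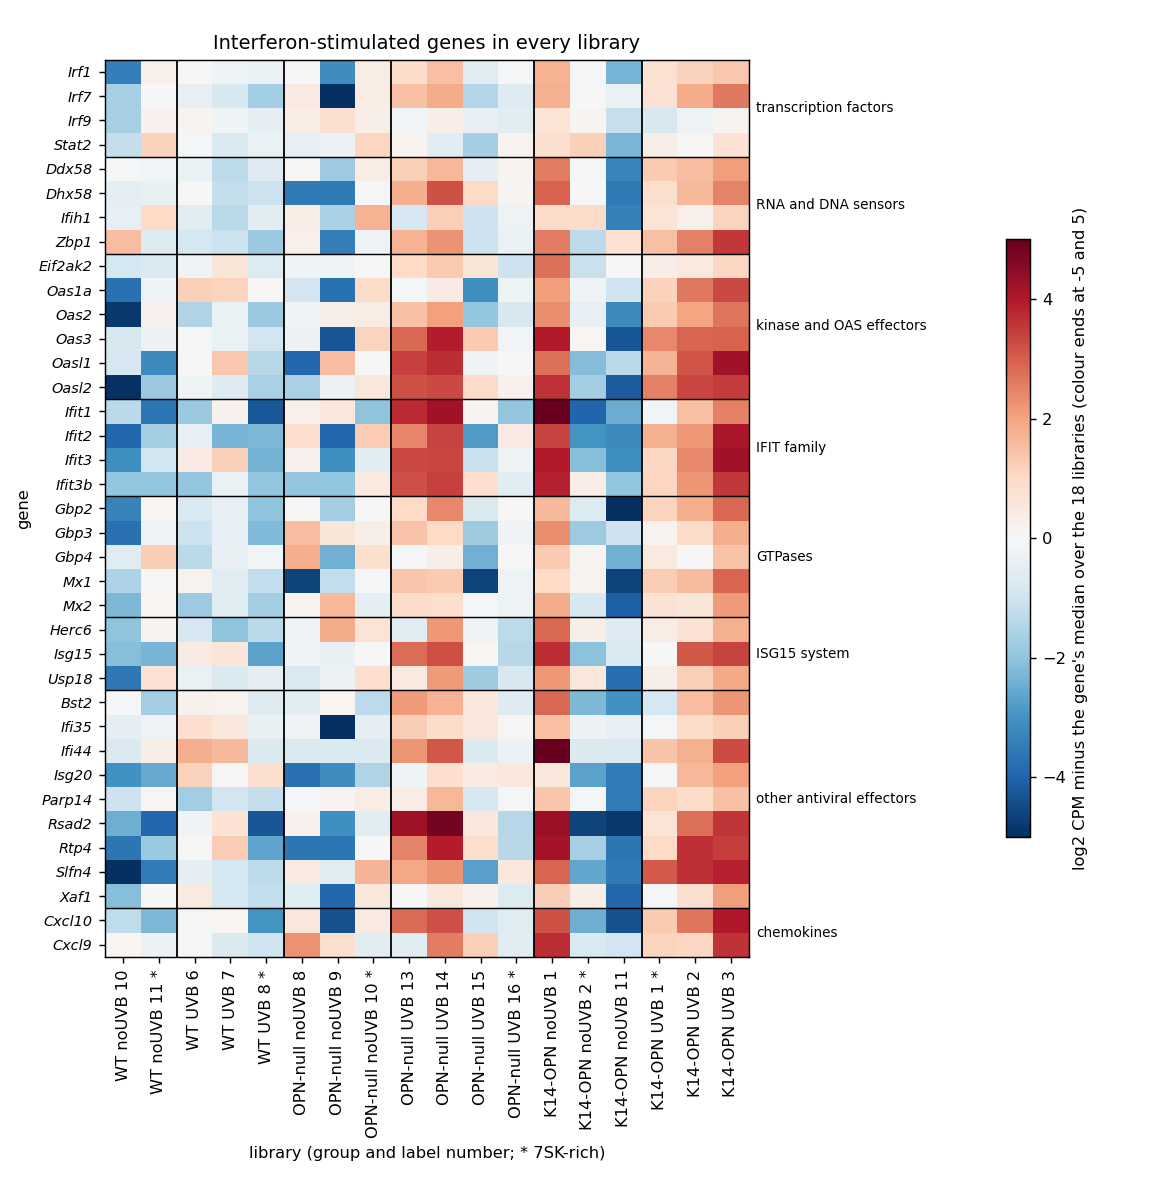
Each row is an interferon-stimulated gene, ordered by role, and each column a library, ordered by group, with a star on 7SK-rich libraries. Colour is the log2 CPM minus the median of the gene over the 18 libraries. OPN-null 13 and 14 and K14-OPN 1, 2 and 3 after UVB, and K14-OPN 1 without UVB, are high for most genes, and the mean of the 37 genes is 4.64 log2 CPM in the last of these and 0.67 in the lowest WT library after UVB.

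Transcripts of leukocytes were high in the same libraries, though less so in K14-OPN 1 after UVB. The summed level of 4 pan-leukocyte markers (Ptprc, Cd52, Coro1a and Laptm5), all with counts in every library, was 194, 247, 54.5 and 43.5 CPM in OPN-null 13, 14, 15 and 16 after UVB. It was 77.6, 275 and 221 CPM in K14-OPN 1, 2 and 3 after UVB, and 28 to 52.5 CPM in WT after UVB. Without UVB it was 331 CPM in K14-OPN 1, the highest of all 18 libraries, and 6.36 to 55.8 CPM in the others.

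Neutrophil and macrophage markers followed this order in part. The 7 neutrophil markers, of which 3 had counts in every library, summed to 5741, 6260, 2218 and 272 CPM in OPN-null 13, 14, 15 and 16 after UVB, to 994, 8538 and 3636 CPM in K14-OPN 1, 2 and 3, and to 196 to 1706 CPM in WT. In the unirradiated K14-OPN 1 they summed to 8530 CPM, against 9.19 to 219 CPM in the other unirradiated libraries. The list includes S100a8 and S100a9, which irritated keratinocytes also express. The neutrophil marker Retnlg alone lay at 402 CPM in that library. The 8 macrophage and monocyte markers, 2 of them with counts in every library, summed to 262 CPM there, to 92.2 to 317 CPM in irradiated K14-OPN libraries and to 26.8 to 65.9 CPM in irradiated WT libraries. Markers of plasmacytoid dendritic cells, known as strong producers of type I interferon, summed to 0.818 to 8.97 CPM over all 18 libraries. Of these 5 markers, 1 had counts in every library. The lowest sum was in OPN-null 14 after UVB and the highest in K14-OPN 11 without UVB, and the unirradiated K14-OPN 1 held 5.46 CPM. The part of any of these cells in the levels of the 37 genes was not tested.

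Ifnk, the keratinocyte interferon, was likewise high in most of these libraries, though not in K14-OPN 1 after UVB. It lay at 14.4, 33.2, 3.43 and 1.23 CPM in OPN-null 13, 14, 15 and 16 after UVB, at 1.62, 20.2 and 27.3 CPM in K14-OPN 1, 2 and 3, and at 7.28, 6.83 and 0.574 CPM in WT 6, 7 and 8. Without UVB it lay at 44.2 CPM in K14-OPN 1 and at 0.712 to 7.04 CPM in the other 7 libraries. Ccng1 did not share this pattern: at 20.3 CPM the unirradiated K14-OPN 1 lay within the range of unirradiated libraries.

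**Figure D3:**
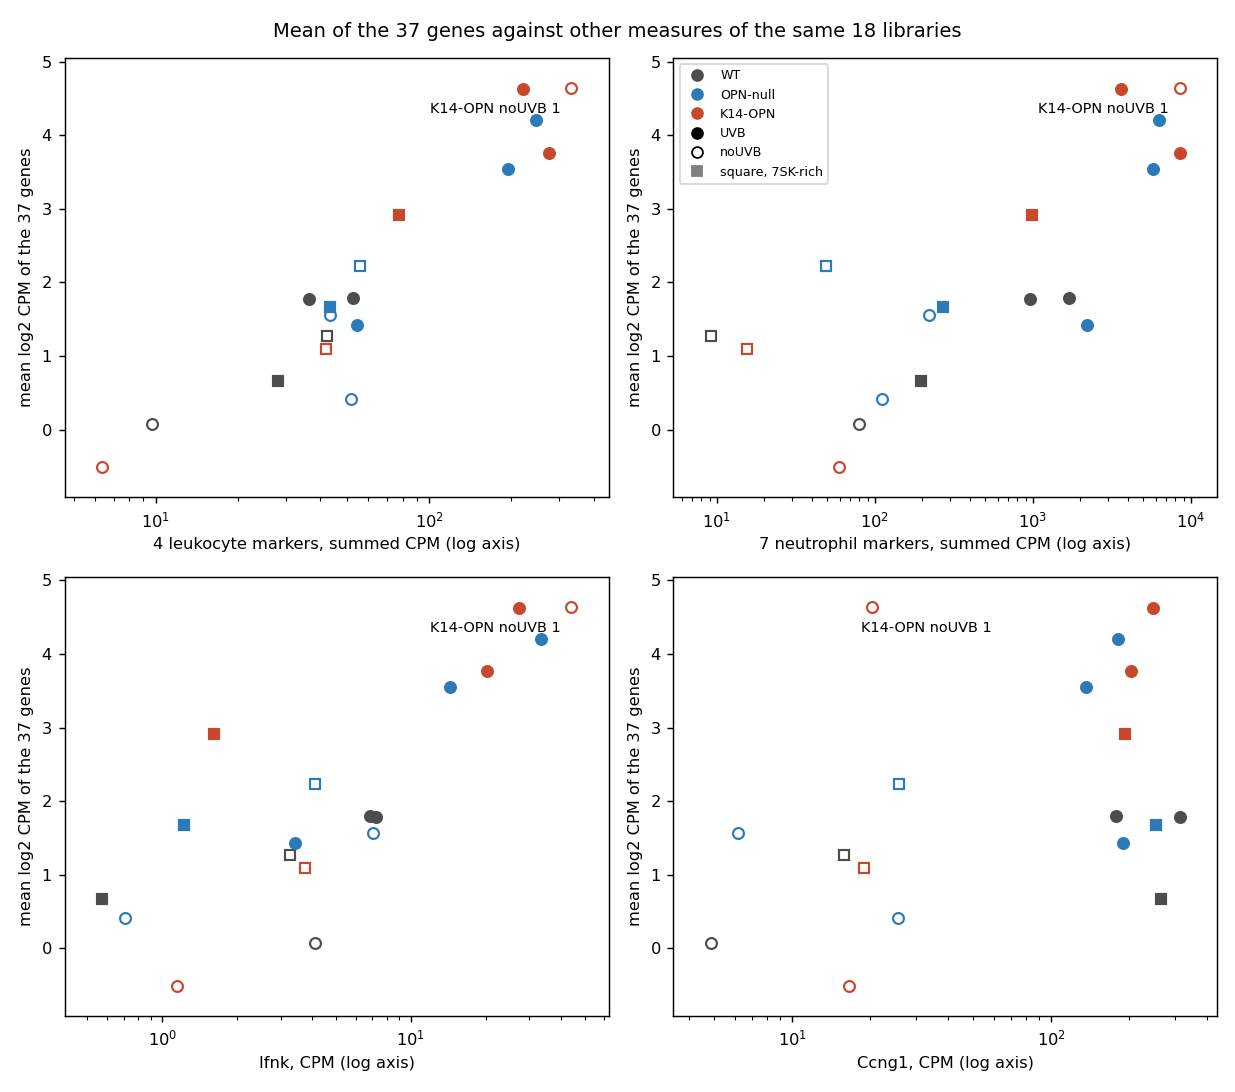
The vertical axis is the mean log2 CPM of the 37 genes in each library, and the horizontal axes, on log scales, are the summed CPM of 4 leukocyte markers, the summed CPM of 7 neutrophil markers, the CPM of Ifnk and the CPM of Ccng1. Open points are unirradiated. The unirradiated K14-OPN 1, at 4.64, lies beside the highest irradiated libraries for leukocyte markers and Ifnk, and among unirradiated libraries for Ccng1.

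The transcription factors that carry the interferon signal had the narrowest range of the 8 roles, with a mean log2 CPM of 1.94 to 5.46 over the libraries. Irf9, the DNA-binding partner of STAT2, lay at 44.8, 34.6 and 29.9 CPM in WT 6, 7 and 8 after UVB, at 36.6, 50.9, 30.1 and 27.9 CPM in OPN-null 13 to 16, and at 23.2, 34.4 and 44.9 CPM in K14-OPN 1 to 3. Unirradiated libraries held 12.7 and 47.4 CPM in WT, at 52.3, 71.2 and 49.9 CPM in OPN-null, and at 64.9, 44.8 and 18 CPM in K14-OPN. The groups overlapped after UVB, and K14-OPN and WT differed by a log2 fold change of −0.09 ± 0.50 (SE). Irf7, which interferon induces and which raises interferon transcription in turn, ranged more widely. It lay at 22.2, 48.8 and 83.9 CPM in irradiated K14-OPN 1, 2 and 3 and at 10.1, 7.74 and 4.02 CPM in irradiated WT 6, 7 and 8. These did not overlap, and the difference was 2.82 ± 1.04 on the log2 scale, which edgeR did not call. limma voom with quality weights called it, among many other genes in that comparison, whose number is given below. Stat2 and Irf1 differed by 0.73 ± 0.74 and 1.28 ± 0.92 in the same comparison.

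Among sensors, Zbp1, which recognises Z-form nucleic acids and can trigger necroptosis, lay at 0.712, 0.607 and 0.287 CPM in WT 6, 7 and 8 after UVB, and at 4.36, 8.94 and 18.5 CPM in K14-OPN 1, 2 and 3. In OPN-null 13 to 16 after UVB it lay at 5.23, 7.47, 0.615 and 1.13 CPM. In unirradiated libraries it was at 4.48 and 0.845 CPM in WT, 1.76, 0 and 1.19 CPM in OPN-null, and 9.35, 0.496 and 2.50 CPM in K14-OPN. Irradiated WT and K14-OPN libraries did not overlap, and irradiated WT libraries also lay under both unirradiated WT libraries. The log2 fold change of K14-OPN over WT after UVB was 4.31 ± 1.26.

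Dhx58 (LGP2), a helicase that modulates RNA sensing, lay at 5.91, 15.5, 3.25 and 1.77 CPM in OPN-null 13 to 16 after UVB and at 0, 0 and 1.48 CPM without it. These did not overlap (log2 fold change 3.20 ± 1.41, n = 4 and 3, two-sided exact permutation p = 0.0286, the smallest this design allows, 0.54 after adjustment over 108 such tests). With 1 library left out the fold change spanned 2.38, without the irradiated OPN-null 14, to 9.43, without the unirradiated OPN-null 10. The latter was the only unirradiated OPN-null library with a count of Dhx58. In WT it lay at 1.58, 0.607 and 0.670 CPM after UVB and at 1.12 and 1.19 CPM without it. In K14-OPN it lay at 2.99, 5.11 and 9.49 CPM after UVB, and at 13.0, 1.56 and 0 CPM without it, so that its groups overlapped. Ifih1 (MDA5), a sensor of long double-stranded RNA, ranged from 5.16 to 9.33 CPM in irradiated WT, from 6.50 to 30.9 CPM in irradiated OPN-null and from 15.8 to 29.4 CPM in irradiated K14-OPN libraries. In unirradiated libraries it spanned 1.15 to 45 CPM, and its log2 fold change with UVB was −1.26 ± 0.98, −0.70 ± 0.82 and 0.34 ± 0.88 in WT, OPN-null and K14-OPN, none of them called by edgeR.

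Of the kinase and OAS effectors, Eif2ak2 (PKR), which halts translation on binding double-stranded RNA, lay at 9.97, 17.8 and 7.27 CPM in WT 6, 7 and 8 after UVB, at 23.8, 29.7, 17.9 and 5.64 CPM in OPN-null 13 to 16, and at 14.7, 16.5 and 23.9 CPM in K14-OPN 1 to 3. The irradiated groups overlapped. Without UVB, K14-OPN 1 held 81.0 CPM, and the other 7 libraries 5.31 to 12 CPM. The remaining 5 genes of this role are oligoadenylate synthetases, which respond to double-stranded RNA, or their relatives. Oasl2 lay at 3.72, 2.73 and 1.34 CPM in irradiated WT 6, 7 and 8, at 40.9, 44.9, 8.78 and 5.20 CPM in irradiated OPN-null 13 to 16, and at 26.0, 45.4 and 51.6 CPM in irradiated K14-OPN 1 to 3. Every irradiated WT library lay under every irradiated library of the other genotypes. Both of those genotypes carry the null allele of Spp1, and Oasl2 lies 10.46 Mb from Spp1 on chromosome 5. Whether this position bears on the difference was not tested. Oas1a instead was low in irradiated OPN-null libraries, at 1.74, 2.45, 0.0878 and 1.52 CPM, against 4.26, 12.3 and 19.5 CPM in irradiated K14-OPN and 4.35, 4.10 and 1.91 CPM in irradiated WT libraries. Its log2 fold change of K14-OPN over OPN-null after UVB was 3.04 ± 1.11, which edgeR did not call. limma voom with quality weights called it, among many other genes in that comparison, whose number is given below.

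The IFIT genes, whose proteins bind foreign RNA, spanned a wide range. Ifit1 lay at 121, 167, 9.75 and 2.21 CPM in OPN-null 13 to 16 after UVB, at 2.37, 10.3 and 0.335 CPM in WT 6 to 8, and at 8.12, 25.7 and 52.0 CPM in K14-OPN 1 to 3. Without UVB it lay at 274, 0.425 and 1.46 CPM in K14-OPN 1, 2 and 11, at 3.36 and 0.596 CPM in WT, and at 10.6, 12.8 and 2.08 CPM in OPN-null. The unirradiated K14-OPN 1 was the highest of all, and every pair of irradiated groups overlapped. WT lay under OPN-null after UVB by −4.15 ± 1.87 on the log2 scale. Ifit3b, whose promoter stretch Ifit3 shares, had no count in either unirradiated WT library and lay at 8.05 CPM in the unirradiated K14-OPN 1.

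Of the GTPases, Gbp2, a guanylate-binding protein that attacks the membranes of intracellular pathogens, lay at 2.93, 3.80 and 1.15 CPM in WT 6 to 8 after UVB, at 10.5, 27.5, 3.07 and 5.0 CPM in OPN-null 13 to 16, and at 11.1, 18.5 and 38 CPM in K14-OPN 1 to 3. The WT and K14-OPN ranges did not overlap, and the log2 fold change between them was 3.12 ± 1.28. Without UVB, Gbp2 lay at 16.1 CPM in K14-OPN 1 and at 0 to 5.41 CPM in the other 7 libraries. Mx1 and Mx2, which trap viral components, and Gbp3 and Gbp4 differed between K14-OPN and WT after UVB by 1.56 to 2.79 on the log2 scale.

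Isg15, a ubiquitin-like protein conjugated to other proteins, lay at 15.9, 18.4 and 1.72 CPM in WT 6 to 8 after UVB, at 82.5, 111, 12.6 and 4.46 CPM in OPN-null 13 to 16, and at 11.7, 104 and 125 CPM in K14-OPN 1 to 3. Without UVB it lay at 2.61 and 2.24 CPM in WT, at 10.6, 9.26 and 12 CPM in OPN-null, and at 156, 2.76 and 7.20 CPM in K14-OPN. Both unirradiated WT libraries lay under all other unirradiated libraries, while irradiated groups overlapped. The gap from WT 10, at 2.61 CPM on 7 counts, to K14-OPN 11, at 2.76 CPM, was less than the 0.373 CPM of 1 count in WT 10. This order is therefore uncertain, and the share of all genes that show it is not given here. Usp18, which removes ISG15 from proteins, and Herc6, its ligase in mouse, differed between K14-OPN and WT after UVB by 1.80 ± 1.17 and 2.51 ± 1.06.

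Among the other effectors, Rsad2 (viperin), which makes a chain-terminating nucleotide, lay at 474, 681, 36.5 and 9.12 CPM in OPN-null 13 to 16 after UVB, at 21.0, 41.1 and 1.15 CPM in WT 6 to 8, and at 39.5, 168 and 297 CPM in K14-OPN 1 to 3. Unirradiated levels were 498, 0.850 and 0.730 CPM in K14-OPN 1, 2 and 11, at 29.0, 2.85 and 17.2 CPM in OPN-null 8 to 10, and at 4.48 and 1.49 CPM in WT. All comparisons of UVB within a genotype overlapped, with log2 fold changes of 2.92 ± 2.30 in WT, 4.18 ± 1.95 in OPN-null and 0.02 ± 1.73 in K14-OPN.

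Slfn4, a Schlafen gene known in mouse from myeloid cells, was highest in irradiated K14-OPN epidermis. It lay at 65.8, 98.7 and 116 CPM in K14-OPN 1 to 3, at 29.9, 37, 1.05 and 11.3 CPM in OPN-null 13 to 16, and at 5.62, 4.10 and 3.06 CPM in WT 6 to 8. Every irradiated K14-OPN library lay above every library of the other genotypes. In unirradiated skin it lay at 0 and 0.546 CPM in WT, at 10.6, 4.98 and 25.5 CPM in OPN-null, and at 58.7, 1.13 and 0.522 CPM in K14-OPN. The log2 fold change of K14-OPN after UVB was 4.45 ± 1.41 over WT and 2.24 ± 1.15 over OPN-null. edgeR called neither. limma voom with quality weights called both, among many other genes in the same comparisons, whose numbers are given below.

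Cxcl10, a chemokine that attracts activated T cells through CXCR3, lay at 7.56, 19.4 and 49.8 CPM in K14-OPN 1 to 3 after UVB, at 21.5, 28.7, 1.41 and 1.86 CPM in OPN-null 13 to 16, and at 2.69, 3.19 and 0.239 CPM in WT 6 to 8. WT and K14-OPN did not overlap, and the log2 fold change between them was 3.68 ± 1.68. Its unirradiated level was 27.5 CPM in K14-OPN 1 and 0 to 4.40 CPM in the other 7 libraries. The T cell markers themselves summed to 1.12 to 11.2 CPM over all 18 libraries.

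Isg20, a 3′ to 5′ exonuclease that degrades single-stranded RNA, was the only member that the edgeR test of all 18 libraries called higher after UVB, in the average over genotypes. It lay at 30.0, 14.0 and 23.3 CPM in WT 6, 7 and 8 after UVB, and at 1.49 and 2.24 CPM without it. In OPN-null it lay at 11.4, 23.7, 17.9 and 19.3 CPM after UVB and at 0.879, 1.42 and 4.60 CPM without it. In K14-OPN it lay at 12.8, 42.9 and 55.4 CPM after UVB and at 19.7, 1.98 and 1.04 CPM without it. Irradiated and unirradiated libraries did not overlap in WT and OPN-null, and in K14-OPN only the unirradiated library 1 lay within the irradiated range. Its mean level ± SD went from 1.86 ± 0.525 to 22.4 ± 8.04 CPM in WT, from 2.30 ± 2.01 to 18.1 ± 5.09 CPM in OPN-null, and from 7.59 ± 10.5 to 37 ± 21.9 CPM in K14-OPN.

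The log2 fold change of Isg20 with UVB was 3.53 ± 1.11 in WT (edgeR adjusted p = 0.157), 2.79 ± 0.88 in OPN-null (edgeR adjusted p = 0.0897) and 2.33 ± 0.87 in K14-OPN (edgeR adjusted p = 0.190). Averaged over the 3 genotypes, a comparison added after the data had been seen, it rose by 2.88 ± 0.56 on the log2 scale (edgeR adjusted p = 0.00197), where 21.4% of all genes were called and 10% called higher. The rise was also called under every other processing tried, at 2.32 to 3.41, and with any 1 library left out, at 2.69 to 3.63. Within 7SK-rich pairs the difference in log2 CPM was 3.30, 2.04 and 2.60 in WT, OPN-null and K14-OPN, and among Lars2-rich libraries 3.65, 3.75 and 3.33. In the single-gene test, OPN-null gave a two-sided exact permutation p of 0.0286, the smallest possible with 4 and 3 libraries, and 0.54 after adjustment over 108 such tests. The genotypes differed in Isg20 after UVB by 0.31 ± 0.77 to 1.03 ± 0.76 on the log2 scale. edgeR called none of these. limma voom with quality weights called that of K14-OPN over OPN-null, among many other genes in that comparison, whose number is given below.

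For the whole set, edgeR called no gene for UVB within a single genotype. In WT, 0 of the 37 genes passed an adjusted p of 0.05 in edgeR, where 0.0952% of all 18910 genes did, and 1 passed an unadjusted p of 0.05, where 13% of all genes did. In OPN-null, 0 of the 37 were called, against 3.41% of all genes, and 4 (Isg20, Rsad2, Dhx58 and Ifi35) passed the unadjusted threshold, against 21% of all genes. In K14-OPN, 0 were called, against 1.06% of all genes, and 1, Isg20, passed the unadjusted threshold, against 15.6%. DESeq2 called 1, 2 and 0 of the 37 in WT, OPN-null and K14-OPN, where it called 883, 2347 and 1371 of all genes. limma voom with quality weights called 0, 0 and 1, where it called 921, 2320 and 1424 of all genes. In edgeR these shares lie under the background of all genes. Irradiated libraries all lay above unirradiated ones for 5 of the 37 genes in WT, against 14.8% of all genes, for 3 in OPN-null, against 11.3%, and for 2 in K14-OPN, against 11.5%. In WT they all lay under them for another 3 (Zbp1, Ifih1 and Ddx58), against 13.7%.

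The median log2 fold change of the 37 genes with UVB was 0.30 in WT, 1.47 in OPN-null and 0.54 in K14-OPN, beside −0.15, 0.02 and −0.18 for all genes. Positive values were found for 22, 29 and 31 of the 37. Markers of dermal fibroblasts were lower on average after UVB, with the WT groups overlapping, at mean summed levels of 1487 and 215 CPM without and with UVB in WT, 3949 and 262 CPM in OPN-null and 1840 and 135 CPM in K14-OPN. With their level as a covariate, the medians of the 37 genes were 0.85, 2.80 and 1.81. That level itself differed on average between irradiated and unirradiated groups, so the fit cannot separate it from UVB. By role, the IFIT genes had the largest median in OPN-null, 3.16, and GTPases the lowest, −0.23. The 7SK-rich pairs of libraries gave medians of −0.71, −0.82 and 1.53 in WT, OPN-null and K14-OPN, and the Lars2-rich libraries 1.33, 2.24 and 2.23, so the sign in WT and OPN-null differed between the kinds of library. In WT the median was 1.28 without the unirradiated WT 11, whose Spp1 was low, −0.22 without the unirradiated WT 10 and −0.15 without the irradiated WT 6. In OPN-null it was 0.58 without the irradiated OPN-null 14. Without the unirradiated K14-OPN 1, the median in K14-OPN was 3.31, all 37 were positive, and 5 (Isg20, Oasl2, Rsad2, Bst2 and Slfn4) were called higher, where 790 of all genes were called. Among unirradiated libraries it was the highest for 33 of the 37 genes, so leaving it out raises these values in itself.

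After averaging over genotypes, 29 of the 37 genes had a positive UVB difference, with a median of 0.92 beside −0.11 for all genes. Isg20 was called, and 5 others (Isg15, Oasl1, Oasl2, Rtp4 and Slfn4) passed the unadjusted threshold, against 16.5% of all genes in that direction. The 8 with negative values, between −0.75 and −0.05, were Irf9, Stat2, Mx2, Ifih1, Cxcl9, Gbp3, Gbp4 and Herc6. The median was 0.15 with the leukocyte level as a covariate. It was −0.055, with 16 positive, without the unirradiated K14-OPN 11, WT 10 and OPN-null 9 and with library kind as a term. Without the unirradiated K14-OPN 1, 14 of the 37 were called, among them Isg15, Ifit1, Rsad2 and Cxcl10, as were 4601 of all genes. This library stood out by its high levels of the same genes, so leaving it out raises their UVB differences in itself. The added calls are therefore no separate support for a rise with UVB.

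After UVB, K14-OPN lay above WT for 36 of the 37 genes, against 43.5% of all genes, with a median log2 fold change of 2.60 beside −0.08 for all genes. The exception was Irf9. In edgeR, 0 of the 37 were called, as 0% of all genes were, and 15 passed the unadjusted threshold, all higher in K14-OPN, against 1.64% of all genes in that direction. DESeq2 called 0 of the 37 and 2 of all genes, and limma voom with quality weights called 12 of the 37 and 774 of all genes. For 24 of the 37 genes every K14-OPN library lay above every WT library, which held for 7.82% of all genes. The largest differences were those of Ifit3b (5.34 ± 2.07), Ifit2 (4.64 ± 1.81), Slfn4 (4.45 ± 1.41) and Zbp1 (4.31 ± 1.26). Irradiated WT libraries held 0 to 2 counts of Ifit3b, 2 to 20 of Ifit2 and 4 to 9 of Zbp1, so these folds are uncertain. They held 27 to 71 counts of Slfn4. By role, the median was 3.78 for IFIT genes, 3.69 for chemokines, 3.18 for kinase and OAS effectors, 2.60 for GTPases, 2.52 for sensors, 2.51 for the ISG15 system, 1.65 for other effectors and 1.01 for transcription factors.

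The difference between K14-OPN and WT after UVB was present in both kinds of library, with a median of 2.35 in the 7SK-rich pair and 2.64 in Lars2-rich libraries. With any 1 library left out it was 2.06 to 2.91, while the number past the unadjusted threshold was 4 without K14-OPN 3 and 4 without WT 8. With the leukocyte marker level as a covariate, the median was 0.54, with 24 of 37 positive and 5 past the unadjusted threshold. That level may itself depend on genotype, so the smaller median does not show its cause.

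WT lay under OPN-null after UVB for 34 of the 37 genes, with a median log2 fold change of −1.90 beside 0.03 for all genes. In edgeR, 0 were called, against 0.00529% of all genes, and 7 (Ifit1, Ifit2, Ifit3b, Oas3, Oasl2, Zbp1 and Parp14) passed the unadjusted threshold, all lower in WT, against 1.06% of all genes in that direction. DESeq2 and limma voom called 0. Every WT library lay under every OPN-null library for 4 genes (Mx2, Oasl2, Dhx58 and Parp14), against 1.42% of all genes. The median was −1.06 in the 7SK-rich pair and −1.45 in Lars2-rich libraries, and with the leukocyte level as a covariate it was −0.22. Without OPN-null 14 it was −1.11, with 1 past the unadjusted threshold, and without WT 8 it was −1.62, with 0 past it.

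K14-OPN and OPN-null after UVB overlapped for most members. The median log2 fold change was 0.69 beside 0.01 for all genes, and 32 of the 37 were positive. In edgeR, 0 were called, as 0% of all genes were, and 1, Oas1a, passed the unadjusted threshold, against 0.989% of all genes in that direction. DESeq2 called 0 of the 37 and 4 of all genes, and limma voom with quality weights 3 of the 37 and 1870 of all genes. With voom the share of the 37 was not above that of all genes. Without K14-OPN 3 the median was 0.13, with 22 positive, and without OPN-null 14 it was 1.48. Every K14-OPN library lay above every OPN-null library for 2 genes, Oas1a and Slfn4, against 4.96% of all genes. These comparisons share groups, so their values are not independent of each other.

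Without UVB, K14-OPN libraries differed from the others mainly through library 1. Over WT the median log2 fold change was 1.93, and over OPN-null 1.09, beside −0.03 and 0.12 for all genes. Without K14-OPN 1 these medians were −0.34 and −1.11. In edgeR, 0 of the 37 were called in either comparison, as 0% of all genes were. At an unadjusted p of 0.05, 8 lay higher than in WT, against 1.69% of all genes, and 1, Ifi44, higher than in OPN-null, against 4.92%. WT lay under OPN-null with a median of −0.74 beside 0.12 for all genes, with 0 called, as 0% of all genes were, and 1, Slfn4 (−5.11 ± 1.88), past the unadjusted threshold, against 0.841% of all genes in that direction. DESeq2 and limma voom called 0 of the 37 in all 3 unirradiated comparisons.

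The UVB response itself was compared between genotypes by interaction terms, and 0 of the 37 genes were called in edgeR in any of the 3, as 0% of all genes were. DESeq2 and limma voom called 0 as well. The members' median difference in response was −0.70 between WT and OPN-null, −0.31 between K14-OPN and OPN-null and 0.24 between K14-OPN and WT, the second subtracted from the first. That between WT and OPN-null was 0.37 without the unirradiated WT 11, 0.0060 without the irradiated OPN-null 14, and 0.28 with the leukocyte level as a covariate, so its sign was not stable. The only members past an unadjusted p of 0.05 were Zbp1 in WT against OPN-null (−3.99 ± 1.72), where 2.58% of all genes were, and Zbp1 in K14-OPN against WT (3.64 ± 1.70), where 0.598% were. In K14-OPN against OPN-null it was 0 of the 37, where 3.86% of all genes were. Without the unirradiated K14-OPN 1, the medians that involve K14-OPN were 1.73 against OPN-null and 3.11 against WT. That library was high in the same genes, so leaving it out raises both medians in itself.

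**Figure D4:**
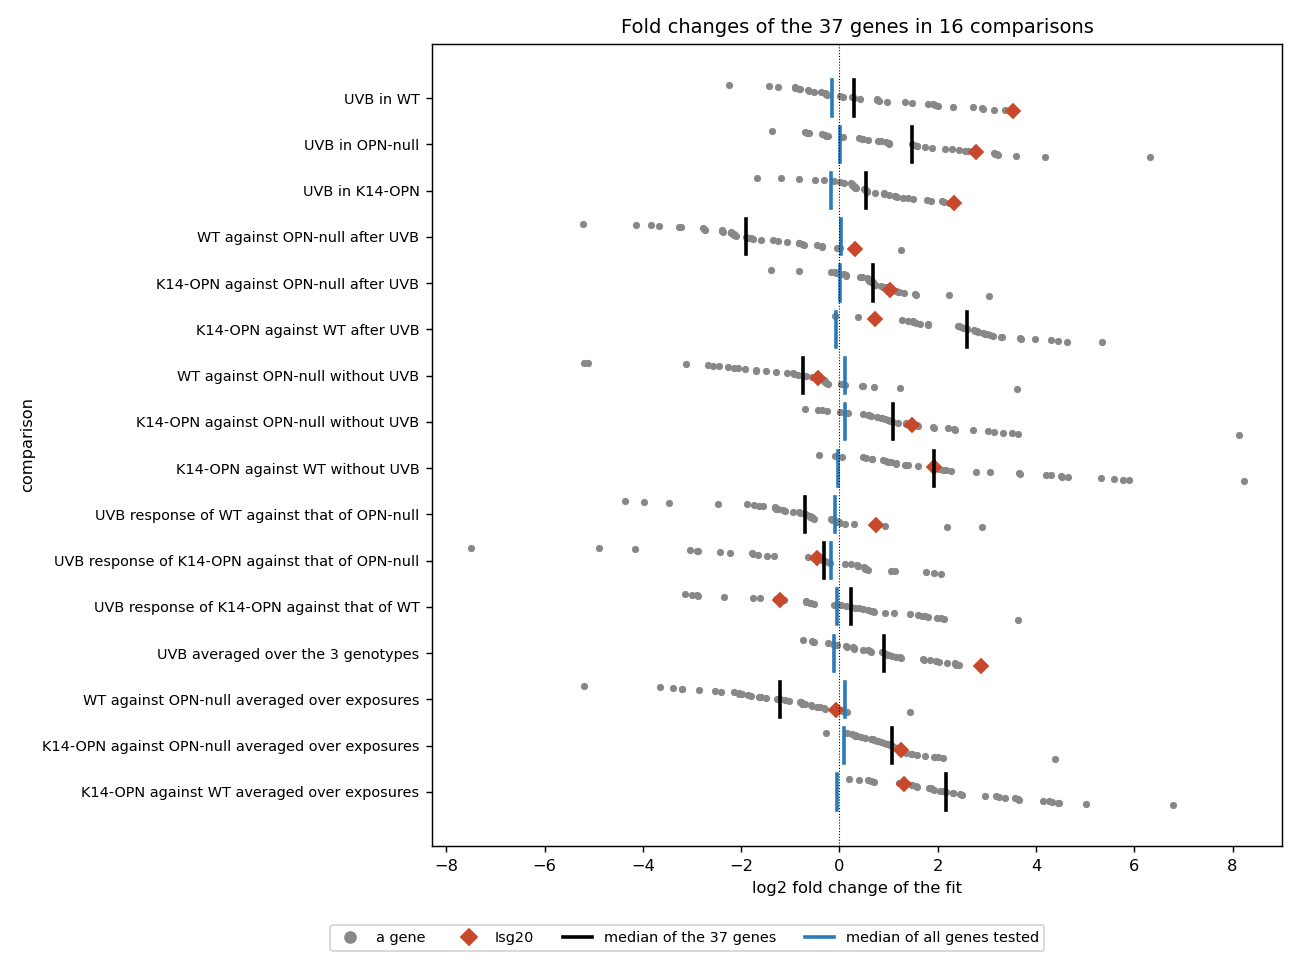
Each point is the log2 fold change of 1 of the 37 genes in 1 of the 16 comparisons, with the median of the 37 in black, the median of all tested genes in blue and Isg20 as a diamond. The median of the 37 is 2.60 in K14-OPN against WT after UVB and −1.90 in WT against OPN-null after UVB, and Isg20 lies at 2.88 in the UVB comparison averaged over genotypes.

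Averaged over exposures, comparisons added after the data had been seen, K14-OPN lay above WT for all 37 genes with a median log2 fold change of 2.16. There, 0 of the 37 were called in edgeR, against 0.00529% of all genes, 23 passed the unadjusted threshold, against 3.55% of all genes in that direction, DESeq2 called 7, where it called 122 of all genes, and limma voom 0. Without the unirradiated K14-OPN 1, 5 passed the unadjusted threshold and the median was 0.96, and with the leukocyte level as a covariate it was −0.021. K14-OPN over OPN-null had a median of 1.06, which was −0.25 without that library, with 0 called, as 0% of all genes were, and 4 past the unadjusted threshold, against 3.52% in that direction. WT over OPN-null had a median of −1.21, with 0 called, against 0.00529% of all genes, and 7 past the unadjusted threshold, all lower in WT, against 2.4%. DESeq2 and limma voom called 0 in both.

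Of 21 interferon ligand genes, 14 had no count in any library and 1, Ifnk, passed the filter on low counts. Ifnb1 and Ifne each had 1 count over all 18 libraries, and Ifng had 13, of which 12 were in K14-OPN 3 after UVB. Ifnab had 17 counts, 15 of them in the same library. edgeR called Ifnk in no comparison, and after UVB its log2 fold change was 1.75 ± 1.32 for K14-OPN over WT and −1.43 ± 1.26 for WT over OPN-null.

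Of 16 tested genes for interferon receptors and their signalling, 4 rose and 1 fell with UVB averaged over genotypes, where 10% of all genes were called higher and 21.4% called in either direction. The feedback inhibitor Socs1 lay at 10.6 to 11.8 CPM in WT, 13.7 to 22.7 CPM in OPN-null and 16.9 to 20.2 CPM in K14-OPN libraries after UVB, and at 2.64 to 5.70 CPM in every unirradiated library. Irradiated and unirradiated libraries did not overlap, and the unirradiated K14-OPN 1, at 3.38 CPM, was among the low ones. Socs1 rose by 2.08 ± 0.26 on the log2 scale (edgeR adjusted p = 8.61e-05), Socs3, another inhibitor of this family, by 1.79 ± 0.50 (edgeR adjusted p = 0.0179), and the kinase gene Jak2 by 1.30 ± 0.34 (edgeR adjusted p = 0.0130). Stat3 rose by 1.12 ± 0.31 (edgeR adjusted p = 0.0162), and Ifnlr1, the receptor chain for type III interferons, fell by 1.55 ± 0.44 (edgeR adjusted p = 0.0184).

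Among genes of nucleic acid sensing upstream of interferon, those that rose with UVB averaged over genotypes included Myd88, the adaptor of most Toll-like receptors (2.17 ± 0.28, edgeR adjusted p = 0.000100), and Samhd1, a nucleotide hydrolase (edgeR adjusted p = 0.0239). These are examples, and the share of this list that rose is not given here to set beside the 10% of all genes. Of 46 other interferon-stimulated genes tested, 10 rose, against 10% of all genes called higher, among them Ly6a (2.78 ± 0.59, edgeR adjusted p = 0.00365) and Ifitm3, which blocks virus entry (2.51 ± 0.68, edgeR adjusted p = 0.0154). In K14-OPN against WT after UVB, 43 of these 46 were positive with a median of 1.73, 0 were called in edgeR and 10 passed the unadjusted threshold, against 1.64% of all genes in that direction. Of 13 genes of antigen presentation by MHC class I, B2m (1.73 ± 0.50, edgeR adjusted p = 0.0203), H2-D1 and Psme1 rose with UVB, where 10% of all genes were called higher. The median of the 13 in K14-OPN against WT after UVB was 0.02.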

How the data were processed

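RNA of scraped dorsal epidermis from 18 mouse samples in 6 groups was analysed from 1 table of whole-number counts per gene that the authors deposited. The submitters' processing notes name build GRCm38 and, without their settings, STAR 2.7.5a, HTSeq 0.11.3, Trim Galore 0.6.5 and bcl2fastq 2.18.0.12. The release of the annotation and the strand setting were not given in the sources used here. Reads of overlapping and antisense genes may therefore be shared, as for 15 of the 37 genes. The 5 summary lines of the table entered neither library sizes nor tests. Of these, reads without a feature were 20.8% to 50.4% of a library's total, ambiguous reads 2.51% to 13.9% and reads that did not align uniquely 12.1% to 29.2%. Ensembl identifiers were matched to GENCODE M21 symbols without their version, and 55144 of 56246 matched, 2 of the 37 genes (Isg15 and Mx1) with another version.

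edgeR 4.0.16 in R 4.3.3 was used with TMM scaling, a filter (minimum count 10, minimum total 15) that left 18910 genes, 6 group means over 18 libraries, and the quasi-likelihood test with Benjamini-Hochberg adjustment over all tested genes. A gene is called at an adjusted p under 0.05, errors of fold changes are SE, and levels on the log2 scale carry a prior count of 2. The common biological coefficient of variation was 0.816. DESeq2 1.42.0, limma 3.58.1 (voom with quality weights), other scalings and filters, library kind or marker levels as terms, and leaving out libraries were alternatives. Values of 12 genes were given per library with the fold and error: those called, those among the 3 smallest p of a UVB comparison within a genotype, and the most abundant of each role, and further genes were named after their values had been seen. The members and lists were chosen with earlier results of these data known. The edgeR steps were run on simulated counts with a smaller spread than these data and with large changes in well-counted genes. That run does not show which changes would be called at the present spread or at low counts. No 2 libraries of the same group agreed within counting noise. The K14-OPN groups share replicate numbers 1 and 2, and the correlations of their deviations did not pair them. Some results are not reported here.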

Additional observations from a re-analysis of the deposited data

Results flagged for a closer look

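Gbp4, a guanylate-binding protein, had no count in OPN-null 15 after UVB, a log2 CPM of −2.75, against 0.581, 0.818 and 0.638 CPM in OPN-null 13, 14 and 16. The gap to the nearest of the other libraries was 0.850 of the group's range, the only such value among 38 tested in this group. Chance gives about 1 in 20, so 1 among 38 is no more than chance gives. In OPN-null 15, 1 count was worth 0.0878 CPM. The libraries compared are of 1 genotype. Reads of Gbp4 may be shared with Gbp8 and Gbp9, which overlap it on the same strand, and at 0.67 Mb from Spp1 on chromosome 5 it is the member nearest to that gene. Another 7 members (Oas1a, Oas2, Oas3, Oasl1, Oasl2, Cxcl9 and Cxcl10) lie on chromosome 5, at 10.46 to 16.46 Mb from Spp1.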

How the results depend on the processing

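The call of Isg20 for UVB averaged over genotypes held in every alternative and with each library left out. Over all alternatives, 296 of the counts of called members were within 1.5 times the reported count and 25 were not, and 307 of the medians moved by less than the replicate spread and 14 by more. With DESeq2, 1 member was called for UVB in WT, 2 in OPN-null, 3 averaged over genotypes, and 7 for K14-OPN against WT averaged over exposures. Of all genes, DESeq2 called 883, 2347, 5083 and 122 in these comparisons. With no filter on low counts, 1, 5 and 1 were called for UVB in WT, OPN-null and K14-OPN and 9 averaged, 2 for K14-OPN against WT after UVB, and 1, 1 and 5 without UVB for WT against OPN-null, K14-OPN against OPN-null and K14-OPN against WT. The same setting gave 1 for the UVB response of K14-OPN against that of OPN-null, and 5 and 13 for WT against OPN-null and K14-OPN against WT averaged over exposures. Fitting only the compared groups gave 1 for UVB in OPN-null. Library kind as a term, that term without 3 unirradiated libraries that stood apart (K14-OPN 11, WT 10 and OPN-null 9), and the leukocyte covariate each gave 2 for averaged UVB. limma voom gave 1 for UVB in K14-OPN (median 2.17), 3 averaged, and 3 and 12 for K14-OPN after UVB against OPN-null and WT. For the unfiltered, compared-group and added-term settings, the numbers of all genes called are not given here. Their counts therefore cannot be read as an excess of members over other genes.

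Lars2-rich libraries alone gave medians of 3.54 for K14-OPN against WT without UVB and −1.42 for the UVB response of K14-OPN against that of WT. With the leukocyte covariate, medians were −0.013 for UVB in OPN-null, −0.22 for WT against OPN-null and 0.54 for K14-OPN against WT after UVB, −0.32 for K14-OPN against WT without UVB and −0.021 averaged. Leaving out 1 library gave 0 to 5 called and medians of −0.062 to 3.31 for UVB in K14-OPN, and 1 to 14 called for averaged UVB. Medians for UVB in WT were −0.22 to 1.28, and −0.34 without the 3 libraries that stood apart (−1.04 with the kind term). Medians without UVB were −1.11 to 1.69 for K14-OPN against OPN-null and −0.34 to 3.10 for K14-OPN against WT, and those of the response of K14-OPN −0.95 to 1.73 against that of OPN-null and −1.32 to 3.11 against that of WT. The values at 5, 14, −1.11, −0.34, 1.73 and 3.11 are those without the unirradiated K14-OPN 1, and −1.32 that without the unirradiated WT 11. The unirradiated K14-OPN 1 was high in these same genes, so leaving it out moves such values in itself. Why it was high was not tested.

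Signs turned for Irf9 in WT against OPN-null without UVB (0.11 without the 3 libraries and with the kind term), for the Rsad2 response of K14-OPN against that of OPN-null (0.078 with voom), and for Rtp4 in K14-OPN against OPN-null without UVB (−0.038 with the leukocyte covariate). With each library left out, K14-OPN against OPN-null without UVB spanned −0.36 to 2.10 for Eif2ak2 and −1.83 to 10.1 for Rtp4, and Oasl2 in K14-OPN against WT spanned −0.11 to 10.9. The response of K14-OPN against that of OPN-null spanned −5.66 to 1.73 for Ifit1, −8.28 to 0.63 for Ifi44 and −4.86 to 3.54 for Rsad2, and against that of WT −2.13 to 0.34 for Eif2ak2. No value was obtained where both groups lost all counts (Ifit3b and Ifi44, 3 settings).

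With the replicate block, UVB in K14-OPN gave 0 members and a median of 0.36, and with crossed numbers 0 members and 2 genes. Deviations of same-numbered libraries correlated at −0.45 and −0.58, and crossed ones at 0.64 and 0.34. Same-numbered libraries were of different kinds by RNA content and crossed ones of the same kind, so these values cannot decide on pairing. Members under about 1 CPM rested on few counts, and 1 count was worth up to 0.712 CPM, which limits their folds.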
